A study of Mus musculus with 141 samples.

Results

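The cells described here are 74 IDH-mutant mouse glioma cells kept in vehicle, and the question is what their DNA methylome looks like before any comparison with drug. They are the 74 columns of a single-cell CpG table that are named for DMSO, out of 141 columns in all. The study profiled IDH-mutant gliomas and culture models treated with IDH inhibitors. In the experiment used here, mouse glioma cells carrying IdhR132H were grown for more than 2 weeks with DMSO, the solvent, or with 1 µM AG-881, an inhibitor of mutant IDH. Live single cells (calcein AM positive, TO-PRO-3 negative) were sorted into a 96-well plate, and each cell gave both a reduced representation bisulfite library and a transcriptome. Only the methylation data of the DMSO arm are described, and nothing is said of AG-881. All 74 cells carry the mutant IDH allele, so no cell shows a methylome without it. The labels name 1 plate and no separate cultures, so cells are not replicates and no test was made. The cells went through 4 library pools, RRBS59 with 21 cells, RRBS510 with 14, RRBS511 with 19 and RRBS512 with 20, which serve as technical repeats.

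Cytosine methylation in mammals sits almost wholly at CpG dinucleotides. Most CpGs of a mammalian genome are methylated, whereas the CpG-rich stretches called CpG islands, which cover many gene starts, are usually free of methylation. Mutant IDH makes 2-hydroxyglutarate, which inhibits the TET enzymes that oxidise methylcytosine, and human IDH-mutant gliomas are known for added methylation at CpG islands. Reduced representation sequencing cuts DNA with MspI at CCGG sites and so samples CpG-dense sequence far more than the rest of the genome.

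The deposited table gives a methylated fraction for each cytosine and cell, without read counts, so read depth is unknown and depth is given as CpGs called. A total of 5501546 calls at 1121826 CpGs of chromosomes 1 to 19 and X were used, with a median of 67749 CpGs per cell (lowest 10438, highest 165853). Single cells therefore cover a small share of the CpGs, and a gene is seen in some cells only. All 95% intervals below are Clopper-Pearson intervals of pooled calls, in which every call counts as independent, so only counting error is covered. No call was methylated among 607 on the mitochondrial genome, which allows up to 0.494%. Of the 24 cell barcodes, 23 occurred in more than 1 pool. Cells of different pools with the same barcode agreed at 87.4% of shared CpGs (85 pairs) and those with different barcodes at 87.5% (1954 pairs).

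Promoters of 4 genes show the states that are counted later. Each line gives the 250 bases before a RefSeq gene start (GRCm38.p6, the same sequence as mm10), written 5′ to 3′ along the gene. CpGs with at least 1 call in a DMSO cell are in capitals, and the remaining CpGs, in lower case, were not called. Fam120a was unmethylated, Prmt8 intermediate, and Nkx6-2 and Ddx4 were methylated.
Fam120a: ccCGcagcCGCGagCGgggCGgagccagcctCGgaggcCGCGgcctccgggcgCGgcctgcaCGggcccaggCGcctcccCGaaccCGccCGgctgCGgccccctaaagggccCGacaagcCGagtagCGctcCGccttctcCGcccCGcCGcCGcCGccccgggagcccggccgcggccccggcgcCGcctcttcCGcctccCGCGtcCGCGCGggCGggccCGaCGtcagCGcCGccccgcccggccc
Prmt8: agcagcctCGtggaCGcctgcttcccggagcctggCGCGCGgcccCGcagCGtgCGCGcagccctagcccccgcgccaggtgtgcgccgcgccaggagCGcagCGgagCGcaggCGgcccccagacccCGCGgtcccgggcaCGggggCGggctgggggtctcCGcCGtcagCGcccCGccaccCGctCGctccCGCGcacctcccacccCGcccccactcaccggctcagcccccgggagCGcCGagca
Nkx6-2: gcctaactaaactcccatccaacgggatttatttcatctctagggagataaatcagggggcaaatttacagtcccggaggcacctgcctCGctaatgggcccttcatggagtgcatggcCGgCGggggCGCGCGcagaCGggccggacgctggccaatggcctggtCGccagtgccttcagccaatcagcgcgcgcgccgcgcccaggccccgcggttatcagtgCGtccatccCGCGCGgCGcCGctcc
Ddx4: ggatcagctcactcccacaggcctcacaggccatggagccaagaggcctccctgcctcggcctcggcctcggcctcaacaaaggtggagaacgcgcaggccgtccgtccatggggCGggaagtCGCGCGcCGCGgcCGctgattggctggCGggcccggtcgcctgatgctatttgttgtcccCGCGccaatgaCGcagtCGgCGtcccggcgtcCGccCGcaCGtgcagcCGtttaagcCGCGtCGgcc
The Fam120a stretch (chr13:48968061-48968310, minus strand) holds 46 CpGs, of which 36 were called, and 0 of 436 calls were methylated. The Prmt8 stretch (chr6:127769160-127769409, minus strand) had 88 of 217 calls methylated, 40.6% (33.96 to 47.4), at 28 of its 37 CpGs. The Nkx6-2 stretch (chr7:139582798-139583047, minus strand) had 51 of 52 calls methylated at 14 of 26 CpGs. The Ddx4 stretch (chr13:112652311-112652560, minus strand) had 79 of 84 calls methylated, 94.0% (86.7 to 98.0), at 20 of 31 CpGs. For 0 of 436 calls the upper limit of the level is 0.688%.

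The methylation level of a cell, its methylated calls as a percentage of all its calls, averaged 34.3% ± 2.85 (SD, n = 74 cells). The level fell steeply with CpG density, which was counted as the CpG positions of the table within 100 bp either side of a CpG. In CpG-poor sequence, with 1 to 4 positions, 65.97% of calls were methylated (65.9 to 66.05). At 5 to 9 positions the level was 43.9% and at 10 to 19 it was 14.3%. In CpG-dense sequence, with 20 or more positions, it was 7.66% (7.61 to 7.71). The pools gave 8.27% (RRBS59), 7.24% (RRBS510), 7.70% (RRBS511) and 7.30% (RRBS512) in dense sequence, and 65.9%, 65.1%, 66.2% and 66.4% in poor sequence. The difference between dense and poor sequence was thus present in every pool and far exceeded the SD over pools of 0.477 and 0.592 percentage points.

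**Figure D1:**
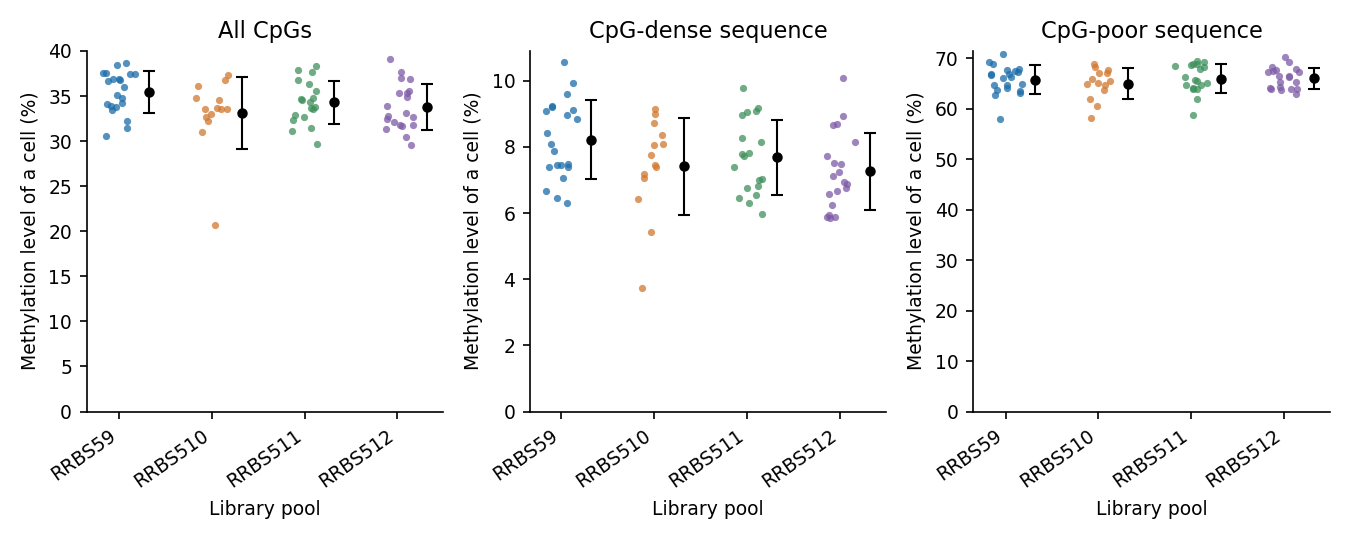
Methylation level of each cell (points; %) by library pool, over all CpGs, CpG-dense sequence and CpG-poor sequence, with the mean and SD over cells of a pool (black). Pools overlap almost fully, 1 RRBS510 cell lies at 20.7%, and dense and poor sequence do not overlap.

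Position relative to genes gave another gradient. Calls within 1 kb of either end of a protein-coding gene were methylated at 10.6%, calls inside genes beyond those windows at 50.8%, and calls outside genes at 66.2%. Pool levels ran from 10.1% to 11.2% at gene ends, from 49.7% to 51.8% inside genes and from 65.03% to 66.6% outside genes. Dense sequence was not equally low everywhere. It stood at 5.60% at gene ends (799804 calls), 11.7% inside genes (211754 calls) and 33.9% outside genes (30178 calls). Dense sequence outside genes held 0.549% of all calls, and its level in single cells ran from 9.54% to 65% with a median of 36.1%. Where a strand was known, both ends of genes differed: calls near gene starts were methylated at 8.28%, and calls near the other end and not near any start at 57.3%. RRBS59 had the highest pool level both at gene ends and inside genes, and RRBS510 the lowest.

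Around gene starts the unmethylated stretch was centred on the start and reached further into the gene than upstream of it. The lowest level was 6.36% (6.28 to 6.44) in the 250 bp before the start, and the 250 bp after it had 6.45%. From 750 to 1000 bp the level was 26.1% upstream and 14.3% downstream. From 1500 to 2000 bp it was 46.8% upstream and 22.1% downstream. From 10000 to 20000 bp the sides had 55.4% and 56.3%. Each pool was lowest within 250 bp of the start, on its upstream side in RRBS59 and RRBS512 and on its downstream side in RRBS510 and RRBS511. In every pool the level was higher upstream than downstream at 750 to 1000 bp and at 1500 to 2000 bp.

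**Figure D2:**
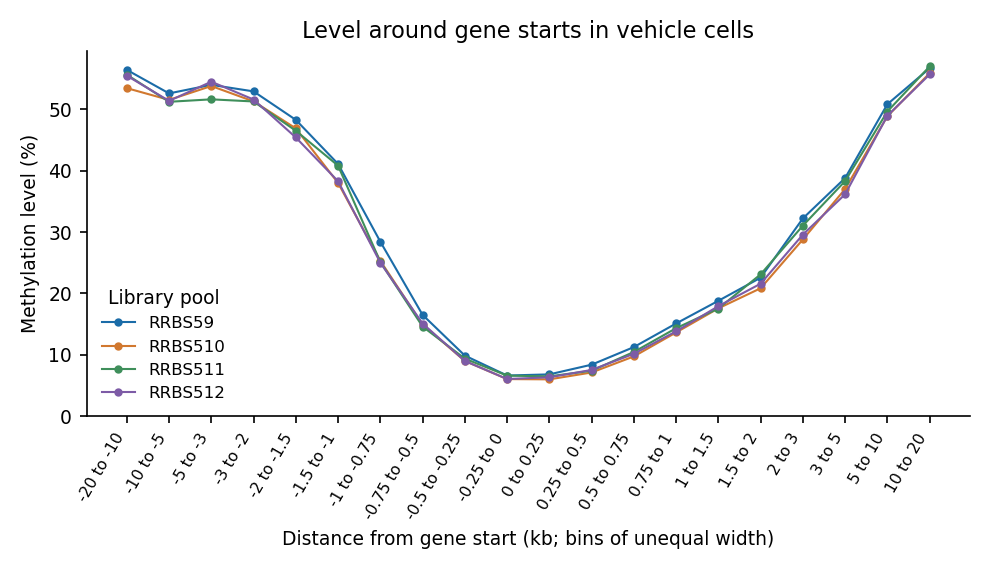
Methylation level (%) against distance from the gene start (kb, in bins of unequal width, negative upstream), pooled over the cells of each library pool. All 4 pools are lowest within 250 bp of the start, at 6.005% to 6.81%, and rise to 53.5% to 56.997% in the outermost bins, more slowly on the downstream side.

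Gene bodies spanned the whole range. Among 4283 genes with at least 100 calls from 10 cells more than 1 kb inside both ends, the median body level was 57.7%, with quartiles at 24.3% and 78.5%. Of these bodies 913 lay below 20%, 2383 from 20% up to 80% and 987 at 80% or more. Longer genes had higher bodies: the median was 34.96% in 406 genes of up to 10 kb, 44.9% at 10 to 30 kb (907 genes), 55.8% at 30 to 100 kb (1412 genes) and 66.9% above 100 kb (1558 genes). The assay samples dense sequence, and these body levels are averages over the CpGs it reached, not over whole genes. Chromosomes ranged from 30.4% (chromosome 19) to 38.8% (chromosome 12) among the autosomes. The X chromosome stood at 49.3%. Dense sequence made up 5.30% of its calls against 14.3% to 22.7% on autosomes, and its dense level was 15.4%, against 4.22% to 14.0% on autosomes. Its level in poor sequence was 61.9%, against 63.02% to 69.1% on autosomes.

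Cells resembled each other closely. The level ran from 20.7% to 39.1% over the 74 cells with a median of 34.2%, and pool means were 35.4% (RRBS59), 33.1% (RRBS510), 34.3% (RRBS511) and 33.8% (RRBS512). The lowest cell, in RRBS510, had 32360 CpGs and the highest share of calls in dense sequence of all cells, 24.4%, and it lay 1.78 percentage points below the other cells at the CpGs it shared with them. Without it the mean was 34.4%. The level moved with the sequence a cell covered: across the 74 cells, which share libraries, it had r = -0.74 with the dense share of calls and r = 0.134 with the logarithm of CpGs called. Without the lowest cell these correlations were -0.638 and 0.0554. Relative to the rest of the cells at CpGs they shared, cells differed by an SD of 1.43 percentage points, with extremes at -3.43 and 3.01. Cells that were high in dense sequence were also high in poor sequence (r = 0.69, n = 74), and those high at gene ends were high inside genes (r = 0.888). Thinned to 20000 CpGs, 72 cells gave a mean of 34.3% and an SD of 2.88. This equalises the number of CpGs called, not read depth or the dense share of calls.

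Pairs of cells agreed at 87.5% of the CpGs both had called (2701 pairs, lowest 80.03%, highest 92.1%, with a median of 6677 shared CpGs). Pairs within a pool and across pools both averaged 87.5%. Agreement was 93.2% in dense sequence, 93.4% at gene ends, 84.8% inside genes and 78.4% outside genes. At a single common level for each kind of sequence, with no difference between CpGs, agreement would be 85.9%, 81.1%, 50.01% and 55.3%. Observed agreement was higher in each kind of sequence, so cells shared which CpGs were methylated and not just how many.

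To ask in how many cells a gene is methylated, each gene was read at its CpG-denser end, within 1 kb. A cell counted with at least 3 CpGs called there and was called methylated at 50% or more of them. Ends with 10 or more counted cells were taken as measured. Cells can cover different CpGs of the same window, and this was not separated from differences between cells. This gave 10718 gene ends of 21631 protein-coding genes, with a median of 215 calls and 27 counted cells. Of those with a known strand, 95.9% were the gene start. At 7285 gene ends (67.97%) no counted cell was methylated, at 1121 (10.5%) up to 10% of cells were, at 1974 (18.4%) over 10% and under 90%, and at 338 (3.15%) 90% or more. The last count depends on the settings: it was 210, 222 and 211 without RRBS59, RRBS511 and RRBS512, 99 with at least 20 counted cells, and 88 or 739 when a cell had to be methylated at 80% or 20% of its CpGs. The median level was 0.552% in the first of these classes, 7.04% in the second, 36.4% in the third and 87.8% in the fourth. In all, 7299 gene ends lay below a level of 5%, 1762 lay at 20 to 80% and 281 above 80%. Because 2500 measured ends share part or all of their window with another gene, neighbours are counted more than once and are named together, with the values of the first.

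**Figure D3:**
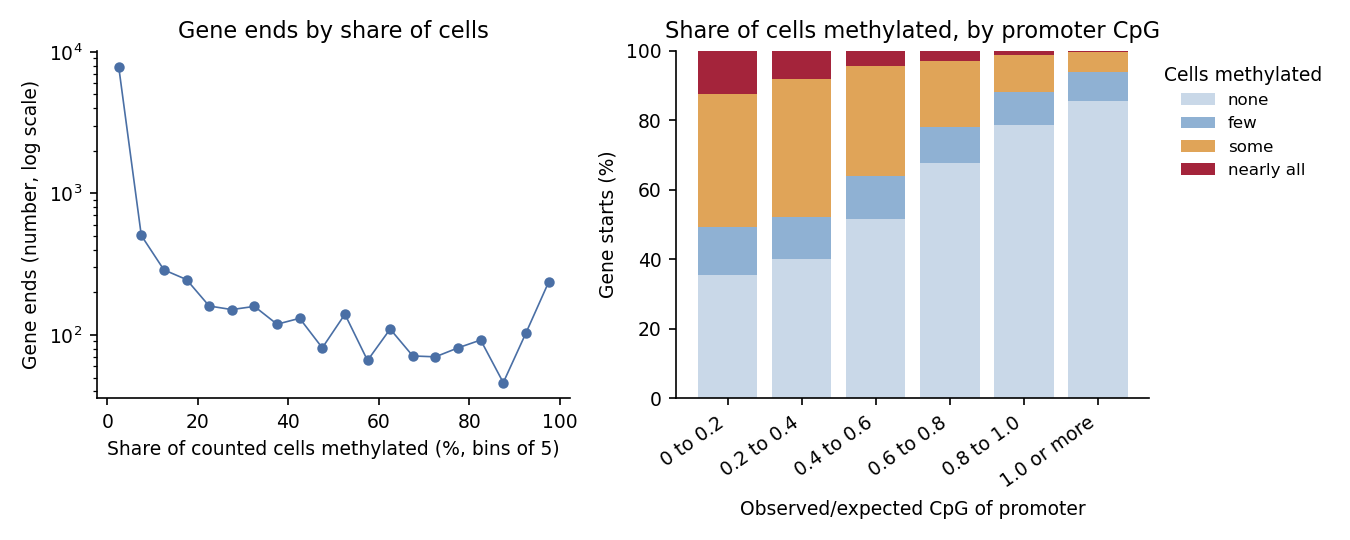
Left, number of gene ends (log scale) against the share of counted cells that are methylated (%, bins of 5). Right, percentage of gene starts in each class of cells methylated, by the observed over expected CpG ratio of the promoter. Most gene ends are methylated in no cell, a smaller peak lies at 90% and above, and the share in nearly all cells falls from 12.3% to 0.495% as promoters become richer in CpG.

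The classes differed in place and in promoter sequence. Among gene ends of known strand, the end opposite the start made up 2.36% of those methylated in no cell and 25.8% of those methylated in nearly all. Read at the start alone, 214 of 8414 genes (2.54%) were methylated in nearly all cells, and read at the other end alone, 165 of 719 (22.9%). In 482 genes both ends were measured, with median levels of 2.58% at the start and 13.7% at the other end. The other end was higher by at least 50 percentage points in 96 of these and lower by as much in 14. The median observed over expected CpG ratio of the promoter was 0.84 where no cell was methylated, then 0.785, 0.697 and 0.684 in the classes of few, some and nearly all cells. Starts with a ratio of 1 or more were methylated in nearly all cells at 6 of 1213 genes (0.495%), and starts below 0.2 at 8 of 65 (12.3%). GC content differed less, with medians of 63.3% and 61.7% in the first and last class. The bodies behind the 4 classes had medians of 66.1%, 68.3%, 61.97% and 73.8%.

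The 12 best-covered CpG-rich gene ends among those methylated in nearly all cells had levels from 75.5% to 96.1% over 33 to 43 counted cells. In 337 of their 449 cell values the cell was at 80 to 100%, and in 6 at 0 to 20%. Klf14, a Krüppel-like zinc finger factor (chr6:30957990-30959990), was methylated in 40 of 40 cells, with 92.1%, 94.7%, 87.9% and 97.3% in RRBS59, RRBS510, RRBS511 and RRBS512. Nkx6-2, a homeobox factor of oligodendrocyte maturation (chr7:139581797-139583797), was methylated in 34 of 34 cells, and its pools lay at 94.96%, 90.4%, 94.0% and 92.2%. Both are high in every pool, with no pool apart from the rest. Nsd1, a histone H3 lysine 36 methyltransferase, had 95.6% at an end whose strand is not listed (35 of 35 cells), and its body had 60.1%. Hoxa11, a homeobox factor of limb patterning, had 87.1% (36 of 36 cells). Among receptors and channels, Fzd10, a Wnt receptor, had 84.1% (37 of 39 cells), and Kcng3, a potassium channel subunit, had 75.5% (38 of 42 cells). Ucp2, a carrier of the inner mitochondrial membrane, had 81.0% (35 of 37 cells). Dazl, an RNA-binding protein of germ cells, had 87.2% (32 of 33 cells). The other four windows lie away from the start of the gene that led to them. Those are the ends of 9430078G10Rik, shared with Kdm2a (88.3%), Cers1, shared with Gdf1 (81.0%), Grin3b, shared with Tmem259 (96.1%), and Prr7 (87.3%). In the Prr7 promoter itself, 250 bases long, 6 of 55 calls were methylated.

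The 12 best-covered gene ends methylated in no cell were Ric1, Pak1, Fzd1, Dbn1, Paip1, Klc2, Cog8 with Nip7, Zfp319 with Usb1, Ro60 with Uchl5, Fam120a, Phf2, and Rmi1 with Hnrnpk. They had 753 to 1539 calls each in 61 to 70 counted cells and levels from 0.0794% to 4.32%. In 753 of their 758 cell values the cell was at 0 to 20%, and in none above 80%. Fzd1, a Wnt receptor like Fzd10, had 1 methylated call of 1114 in 64 cells, 0.0898% (0.00227 to 0.499). The pools gave 0%, 0%, 0.321% and 0%. Fzd1 and Fzd10 were taken from opposite extremes by rule. The other measured members of the Frizzled family lay between them, with Fzd3 at 0.872%, Fzd5 at 1.54%, Fzd4 at 4.50%, Fzd2 at 11.01%, Fzd7 at 14.1%, Fzd9 at 26.3%, Fzd6 at 54.2% and Fzd8 at 65.9%. Ric1, a factor of Golgi traffic, had 8 of 1539 calls methylated in 70 cells. Phf2, a histone demethylase, had 0.379% at its start and 83.6% in its body (140 calls), so an unmethylated start stood before a methylated body. Pak1, a kinase acting on the cytoskeleton, was the highest of the 12 at 4.32% (3.21 to 5.69).

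**Figure D4:**
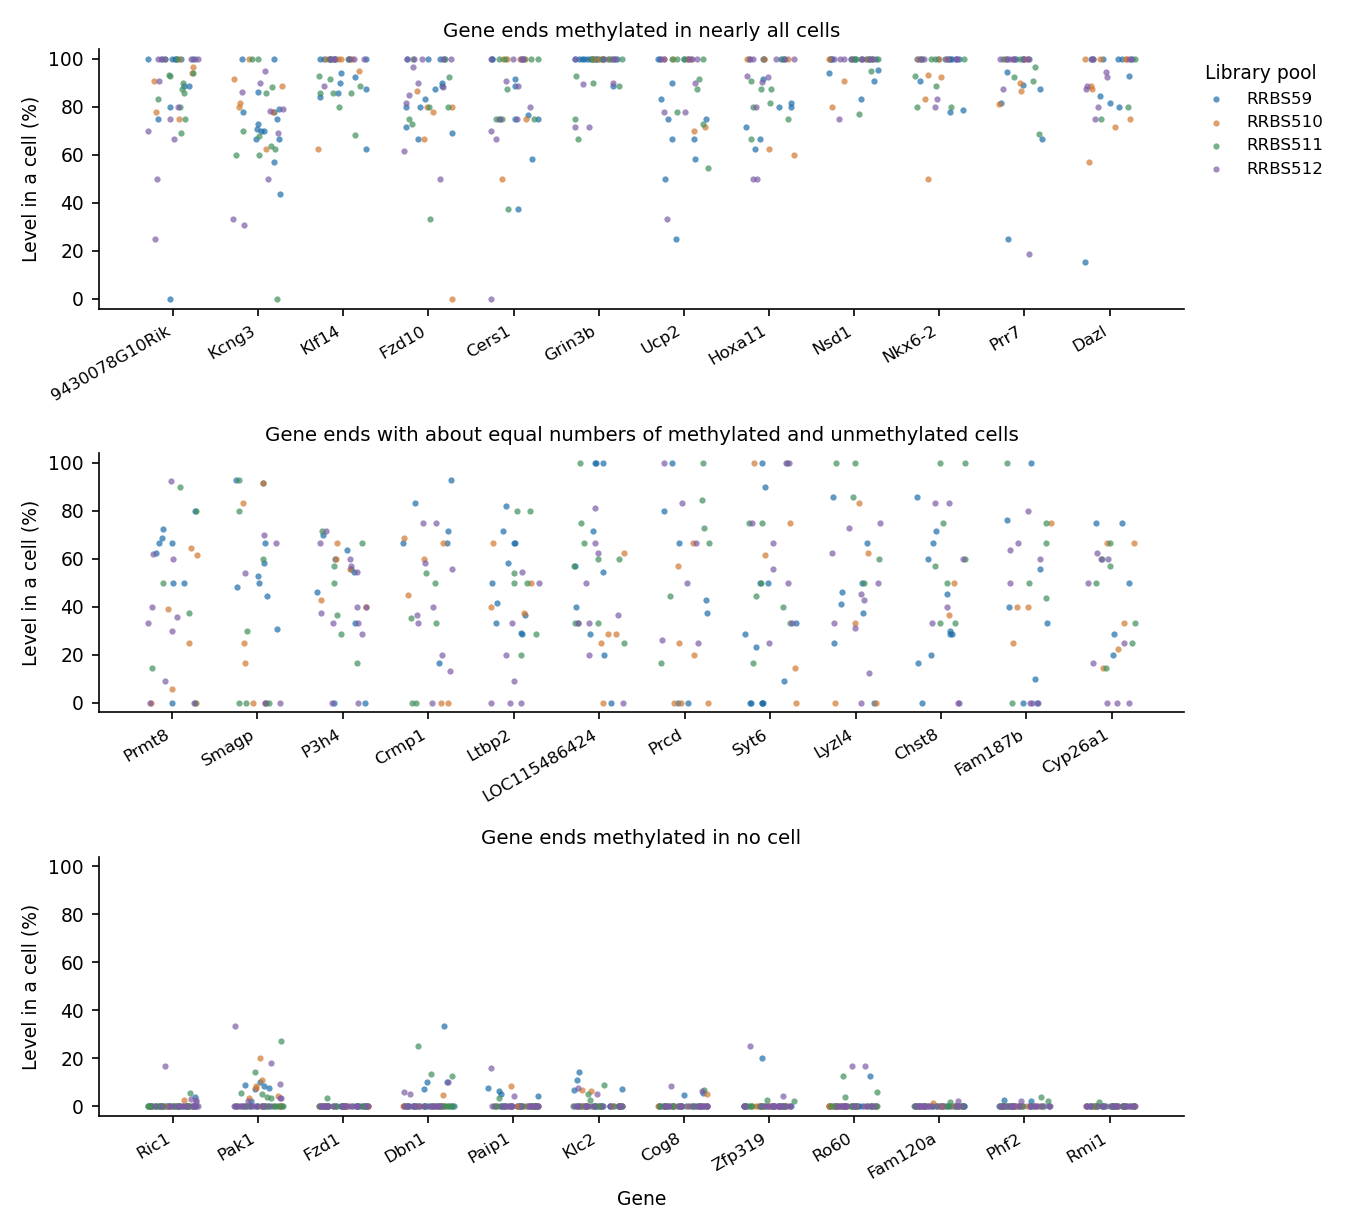
Methylation level of single cells (points, coloured by pool; %) at the 12 gene ends of each rule, shown by the first gene of a shared window. Cells crowd at 100% in the top panel and at 0% in the bottom panel, and in the middle panel they fill the whole range.

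Between these extremes lay gene ends where methylated and unmethylated cells were about equally many. The 12 closest to 50% of cells, with at least 25 counted cells, were Prmt8, Smagp, P3h4 with Fkbp10, Crmp1, Ltbp2, LOC115486424 with T, Prcd with Cygb, Syt6, Lyzl4 with Vipr1, Chst8, Fam187b and Cyp26a1. Their levels ran from 39.4% to 52.3%. Of 354 cell values, 82 were at 0 to 20%, 227 between 20 and 80% and 45 at 80 to 100%, so most cells held both methylated and unmethylated CpGs. Prmt8, an arginine methyltransferase of neurons, had 44.8% (39.7 to 50.1), with pools at 58.3%, 32.2%, 42.1% and 44.8%. Crmp1, which acts in axon guidance, had 70.8% in RRBS59 and 43.8%, 35.5% and 40.9% in the other pools, each from a few cells. Syt6, a synaptotagmin, ran from 34.2% (RRBS59) to 63.6% (RRBS512). Cyp26a1, which breaks down retinoic acid, had 39.4% and no cell at 80 to 100%. LOC115486424, whose window overlaps that of T (brachyury), a mesoderm factor, had 48.8% in 34 cells.

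Some gene ends were mixed within most of their counted cells. The 8 with the highest share of cells between 20 and 80% were Gdf10, Bnc1, Ccdc174 with Grip2, P3h4 with Fkbp10, Piezo1, Slc9a2, Zfp709, and Mmp25 with Bicdl2. In 227 of their 265 cell values the cell lay between 20 and 80%. Slc9a2, a sodium-proton exchanger, was the best covered, at 48.2% (44.2 to 52.2) over 625 calls. Of its 46 cells 39 were mixed, and its pools lay at 47.9%, 47.9%, 45.4% and 50%. Piezo1, a mechanosensitive channel, had 49.4% with 28 of 33 cells mixed. Gdf10, a factor of the bone morphogenetic protein family, had 40.6% with 23 of 26 cells mixed, and its pools differed by 2.01 percentage points.

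Pools differed most where levels were intermediate. Across 7413 gene ends with at least 20 calls in every pool, pairs of pools had correlations across gene ends of 0.919 to 0.935 and median absolute differences of 1.06 to 1.17 percentage points. Gene ends are not independent of each other, and this is a description only. The median range over pools was 1.57 percentage points for gene ends below 5%, 21.9 for those at 40 to 60% and 11.3 for those at 80% or more. Single cells also spread most at intermediate levels, with a median SD of 29.3 at 40 to 60% and 2.20 below 5%. The range that sampling of few cells would give was not worked out, so a difference between pools beyond it was not tested. The widest range was that of Itpkb, a kinase of inositol phosphates, with 76.9% in RRBS59 (8 cells), 42.9% in RRBS510 (5 cells), 38.2% in RRBS511 and 13.04% in RRBS512. The other seven with the widest range were Mtfp1, Efhd1, Slc6a17, Perp, Mixl1, Plcd3 with Acbd4, and Cygb with Prcd, with ranges of at least 43.2 percentage points. These 8 rest on 20 to 32 counted cells each, with 5 or more in every pool, and were picked by their range from 4845 gene ends.

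At the 1762 gene ends with levels of 20 to 80%, 2 CpGs of the same cell agreed in 63.99% of pairs and 2 CpGs of different cells in 55.6%, as means over gene ends. Agreement was higher within cells at 1628 of them. Of 38728 cell values at these ends, 30.9% were at 0 to 20%, 52.6% between 20 and 80% and 16.4% at 80 to 100%. Within-cell agreement reached 90% or more at only 9 gene ends, which were picked after their values were seen. These were Igfbp5, Adprhl2 and Tekt2 (which share a window), D17H6S53E, Sat2, Tspo, Ccdc97, Trim6 and Wnt5a. Each rests on 10 to 16 counted cells and 42 to 97 calls. At Igfbp5, an insulin-like growth factor binding protein, 3 cells were at 0 to 20% and 7 at 80 to 100%, with none between. At Adprhl2, an ADP-ribose hydrolase, 8 and 6 cells were so placed, again with none between. Neighbouring CpGs of a cell can come from the same DNA fragment, and the part of that in within-cell agreement was not tested.

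Gene groups were then read by their counts in the 4 classes, beside all 10718 measured ends, of which 67.97% were methylated in no cell and 3.15% in nearly all, with a median level of 1.35%. Germline genes, which act in germ cells and are silenced by promoter methylation in most other tissues, had the highest median of the 26 lists. All 9 measured of 38 listed were methylated in nearly all cells, with a median of 92.4%. Mael, of the piRNA pathway, had 98.97% (13 of 13 cells), Sycp2, of the synaptonemal complex, 98.4% (11 of 11), and Ddx4, a germ cell helicase, 94.4% (11 of 11). Hormad1, Meioc, Slc25a31, Dazl and Tdrd1 followed between 92.9% and 86.1%, and Asz1, also of the piRNA pathway, was lowest at 81.2% (10 of 11). Every one of them was read at its start. In the 250 bases before the start, 14 listed genes had calls, from 2 to 84 each in the 13 with methylated calls, whose levels ran from 87.9% to 100%. The exception was Tdrkh, a Tudor domain protein of the piRNA pathway, with 0 of 34 calls methylated, which allows up to 8.82%. It was not among the 9 measured ends. The pooled level of the group was 88.8%, 89.6%, 96.2% and 91.1% in the 4 pools.

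**Figure D5:**
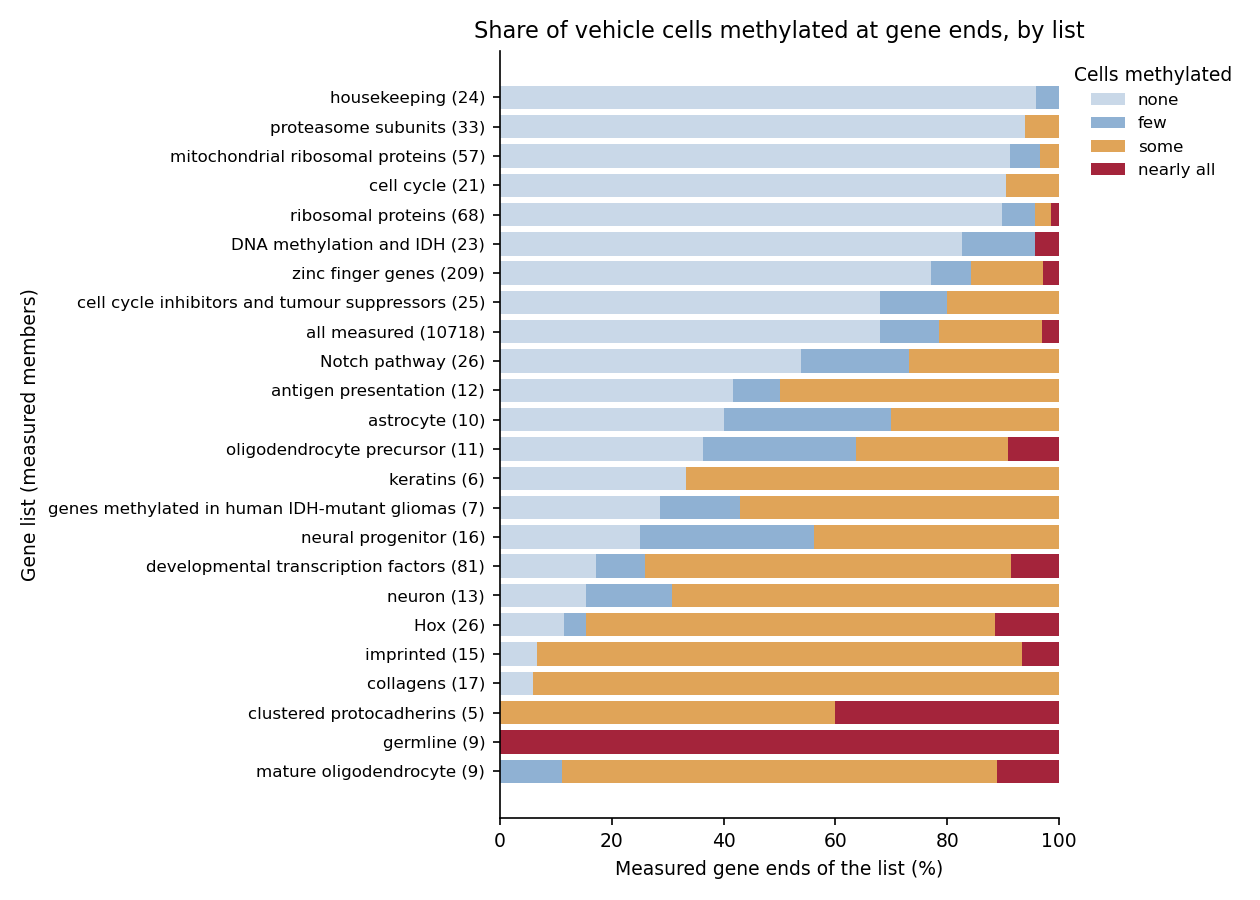
Percentage of the measured gene ends of each list (number measured in brackets; lists with at least 5) by the class of cells methylated. Germline genes are wholly in the class of nearly all cells, housekeeping, proteasome and ribosomal protein genes almost wholly in the class of no cell, and developmental, Hox, imprinted and collagen genes mostly in the class of some cells.

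Imprinted genes, which carry methylation on 1 parental allele at their control regions, were mostly methylated in some cells: 13 of 15 measured, with 1 in nearly all and 1 in none, and a median of 43.5%. Over the 9 members at 20 to 80%, 66 cell values were at 0 to 20%, 52 between and 64 at 80 to 100%. Values in between thus made up 28.6%, beside 52.6% over all intermediate gene ends, and 2 CpGs of the same cell agreed in 74.03% of pairs against 54.2% between cells. The calls do not carry the parental allele, so whether a cell was read on 1 allele or on both cannot be told. Cells and alleles are therefore not told apart in these values. Igf2r, a receptor for insulin-like growth factor 2, had 10 cells at 0 to 20%, 4 between and 8 at 80 to 100%, with a level of 42.1%. Mcts2, a retrogene with imprinted expression, had 9, 1 and 6. Plagl1, a zinc finger factor, had 25, 5 and 7, and Zrsr1, a splicing factor gene, 4, 2 and 11. Rasgrf1, an exchange factor for Ras, was read as mixed in most cells instead (3, 17 and 4). Grb10, a growth factor receptor adaptor, was highest at 89.0% in 27 of 27 cells, and Inpp5f lowest at 0.826%. Peg10 and Sgce share a window, with 10 cells at 0 to 20% and 2 at 80 to 100%. Those 2 cells lie outside the rest, and the window has 81 calls only.

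Transcription factors of development, which often have large CpG islands, were mostly methylated in some cells. Of 81 measured, 14 were methylated in no cell, 7 in few, 53 in some (65.4%, beside 18.4% of all measured ends) and 7 in nearly all, with a median of 38.4%. The 7 in nearly all cells were Nkx6-2 (93.1%), Nkx2-5 (85.3%), Pax9 (85%), Tbx4 (80%), Wt1 (77.97%), Barhl1 (74.7%) and Hand1 (72.7%). They act in heart (Nkx2-5, Hand1), kidney and gonad (Wt1), limb (Tbx4), pharynx and skeleton (Pax9), and nervous system (Nkx6-2, Barhl1). Nr2f1, an orphan receptor of forebrain patterning, had 0 of 568 calls methylated. Hox genes, which set position along the body axis, had a median of 43.9% over 26 measured, with 3 in no cell, 1 in few, 19 in some and 3 in nearly all. Of the 26 Hox ends, 12 were gene starts and 3 were the other end, and the strand of the rest is not listed. Neighbours in the clusters differed widely, though not all were read at the same kind of end. Hoxa11 had 87.1% and Hoxa10 0.552% (181 calls), Hoxa13 had 3.36%, and Hoxa2 had 0 of 197 calls. Hoxd12 had 91.4% and Hoxd1 88.0%, while Hoxd3 had 1.38% and Hoxd8 18.2%. Hoxa5 and Hoxa6, in overlapping windows, had 72.9%, with 3 cells at 0 to 20%, 7 between and 16 at 80 to 100%. Within the HoxA cluster, Hoxa11 was thus methylated in 36 of 36 counted cells and Hoxa10 in 0 of 29.

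Genes of the neural lineages did not share a state. These lists describe methylation only and do not name the cells. Genes of oligodendrocyte precursors had 11 measured ends, with 4 in no cell, 3 in few, 3 in some and 1 in nearly all. Their median was 4.36%, and the share in no cell was 36.4%, beside 67.97% of all measured ends. Ptprz1 (0 of 240 calls), a receptor phosphatase, Olig1 (0.847%), a lineage factor, and Epn2 (0.508%) were among those methylated in no cell. Olig2, a relative of Olig1, had 3.70%, with 1 of 13 cells methylated. Sox10, a factor of the oligodendrocyte lineage, had 64.8% (11 of 15 cells) and Nkx2-2, also a lineage factor, 91.1% (10 of 10 cells). The body of Nkx2-2 had 30.97%. None of the 9 measured genes of mature oligodendrocytes was methylated in no cell. Of these, 7 were methylated in some cells, and the median was 46.2%. Ugt8a, which makes the myelin lipid galactosylceramide, had 58.1% (53.05 to 63.1) with pools at 56.9%, 64.3%, 60% and 55.4%. Nkx6-2 was the highest of the list and Fa2h, which hydroxylates myelin lipids, the lowest at 11.6%.

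Progenitor genes were split: of 16 measured, 4 were methylated in no cell, 5 in few and 7 in some, with a median of 12.3%. The share in no cell was 25%, beside 67.97% of all measured ends. Sox2 (0 of 286 calls) and Sox11 (0 of 513 calls), factors of neural progenitors, Sox4 (1.08%) and Vim (0.474%), an intermediate filament, were methylated in no cell. Nes, the intermediate filament of neural progenitors, was highest of the 16 measured at 73.9% (66.8 to 80.1), with 2 cells at 0 to 20%, 1 between and 12 at 80 to 100%. Its pools had 67.4% (3 cells), 100% (1 cell), 65.8% (6 cells) and 88.0% (5 cells). Sox3, a relative of Sox2, had 54.1% (23 of 36 cells) and Pax6, a factor of forebrain and eye, 50.8% (11 of 20 cells). Among 10 astrocyte genes, 4 were methylated in no cell, 3 in few and 3 in some. Of these 10 ends, 7 were gene starts and 1 was the other end, and the strand of the rest is not listed. Clu, a secreted chaperone, was highest at 47.3% and Aldoc, in a window with Pigs, lowest with 0 of 155 calls. Of 13 neuronal genes, 9 were methylated in some cells, with a median of 25.5%. Slc32a1, the vesicular transporter of GABA, had 80.2% at an end that is not its start, and Tubb3, a neuronal tubulin, had 2.06% in a window shared with Mc1r. In the list of microglia and immune cells, 2 of 20 genes were measured. Spi1, a factor of myeloid cells, had 27.03% (2 of 10 cells methylated), and the other gene had 6.70%, in the class of few cells. In the list of vascular cells and fibroblasts, Des (79.7%), Cldn5 (72.8%), Flt1 (63.8%) and Kdr (21.5%) were measured. Kdr, a receptor of endothelial growth factor, was methylated in 2 of 24 cells, and Des, the muscle filament desmin, in 17 of 18.

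The Notch pathway, whose receptors are cut on ligand binding and then act in the nucleus, had a median of 2.29% over 26 measured ends, with 14 in no cell, 5 in few, 7 in some and 0 in nearly all. Of the ligands, Dll3 was highest at 50.5% (10 of 15 cells), Jag2 had 44.4% and Dll1 2.44%. Of the receptors, Notch1 had 0 of 232 calls methylated, which allows up to 1.29%, Notch2 had 1.21% and Notch3 22.8%. Of the targets, Heyl had 44.7% and Hes1 12.1%, while Hey1, in a shared window, had 0.122% over 823 calls. Ligands, receptors and targets each held both unmethylated and intermediate members. The shares of the list were 53.8% in no cell and 26.9% in some, beside 67.97% and 18.4% of all measured ends, and were not tested.

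Genes needed in every cell were almost free of methylation. Of 24 housekeeping genes, 23 were methylated in no cell and Chmp2a, of the endosomal sorting complex, in 1 of 11 cells (11.5%). Of 68 cytoplasmic ribosomal protein genes, 61 were methylated in no cell. Of those in the classes of some or nearly all cells, Rpl39l, a testis-biased paralog of Rpl39, had 90% (11 of 12 cells), Rpl3l, a muscle paralog of Rpl3, 62.2%, and Rpl38 16.8%. No call was methylated in 29 of the 68, of which Rps18, in a window with Vps52, had the most calls (590). Of 57 mitochondrial ribosomal protein genes, 52 were methylated in no cell. Mrps23 was highest at 72.9% (13 of 16 cells), and Mrps18b, which shares its window with Ppp1r10, had 0 of 527 calls. Of 33 proteasome genes, 31 were methylated in no cell. The remaining pair, Psmb9 (31.2%) and Psmb8 (26.03%), are inducible subunits of the immunoproteasome, but Psmb10, which is inducible as well, had 0 of 112 calls methylated. All of these also count among 12 genes of antigen presentation, of which 6 were methylated in some cells. H2-Q7 (48.8%) and H2-Q4 (44.1%) were highest there. The class I genes are near-identical copies, and how the authors' alignment shared reads among them is not given in the sources used here.

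Cell cycle genes were unmethylated at 19 of 21 measured ends. Cdk6, a kinase of G1 phase, had 55.8% (49.2 to 62.3), with 5 cells at 0 to 20%, 10 between and 12 at 80 to 100% and pools at 46.3%, 81.5%, 47.5% and 64.6%. Ccnb2, a mitotic cyclin, had 12.2%, with 11 cells at 0 to 20% and 2 at 80 to 100%. No call was methylated in 7 of the 21, of which E2f1 had the most calls (443). Of 25 inhibitors of the cycle and tumour suppressors, 17 were methylated in no cell, 3 in few and 5 in some. These shares, 68% in no cell and 20% in some, were near the 67.97% and 18.4% of all measured ends. The 5 in some cells were Cdkn1c (64.5%, also an imprinted gene), Cdkn2b (59.1%), Sfrp1 (56.4%, a Wnt antagonist), Cdh1 (48.98%, E-cadherin) and Trp73 (24.1%). Cdkn2b encodes the p15 inhibitor of Cdk4 and Cdk6, and its cell values stood apart, 4 at 0 to 20%, 1 between and 8 at 80 to 100%. Its neighbour Cdkn2a had 1 of 625 calls methylated, 0.16% (0.00405 to 0.888), in 50 cells. Cdkn2c had the most calls of the members at 0 (0 of 464).

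The genes that write, read and erase methylation, and those of IDH metabolism, were largely unmethylated: 19 of 23 measured in no cell, 3 in few and 1 in nearly all. The last is the window that Kdm2a, a histone demethylase, shares with 9430078G10Rik. The body of 9430078G10Rik had 0.658% over 608 calls, so the high level did not extend through that gene. Tet1 had 14.6% (1 of 24 cells methylated), while Tet2 had 0.339% and Tet3 1.49%. Dnmt3b, a de novo methyltransferase, had 4.62%, and Uhrf1, needed for maintenance methylation, 4.00%. Idh1, in a window with Pikfyve, had 0 of 177 calls methylated. Alkbh3 (9.52%) and Uhrf1 were the other genes methylated in few cells. Kdm2b, a CpG island binding demethylase, had 0 of 216 calls, the most among 7 members with no methylated call. Of 14 genes listed as methylated in human IDH-mutant gliomas, 7 were measured, with a median of 25.6%. Sfrp1 was highest, 4 lay in the class of some cells, and Rhof, in a window with Setd1b, had 0 of 523 calls.

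Collagens, proteins of the extracellular matrix, were intermediate almost throughout: 16 of 17 measured were methylated in some cells, with a median of 37.1%. Col2a1, of cartilage, was highest at 65.5% (16 of 23 cells), and Col16a1 had 0 of 82 calls. Keratins of 6 measured ends ran from 75% (Krt35, of hair) to 0.662% (Krt10), the latter not at its start. Of zinc finger genes named Zfp, 161 of 209 measured were methylated in no cell, 15 in few, 27 in some and 6 in nearly all. The most methylated of them were Zfp996 (93.9%, 24 of 24 cells) and Zfp541 (93.8%, 10 of 10 cells), and 57 had no methylated call, with Zfp644 the best covered of these (576 calls). Zfp503, a repressor of striatal development, had 80.4%. Of 1106 olfactory receptor genes a single one, Olfr1166, was measured (54.5%). The lists and their members were compared with all measured ends as counts, and no list was tested.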

How the data were processed

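Single-cell reduced representation bisulfite libraries (MspI) of 74 DMSO cells were read from a table of the whole series. The calls of its 67 other columns were not used. CpG density, the denser end of a gene and counts of CpG positions rest on all positions of the table, also those called only in other columns. These were 1322177 CpGs after merging, of which 1121826 were called in a DMSO cell. The authors deposited a methylated fraction per cytosine and cell on build mm10, per the submitters' processing notes, and 0.397% of the fractions were 0.5. Which aligner and caller were used, and with which read minimum, is not given in the sources used here. Columns carry the arm, the pool and a barcode but no well, so they were assigned to the arm only.

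Adjacent positions were merged as the strands of a CpG. A call was methylated above 0.5, and ties (0.642%) were left out. Gene positions, strands (17274 of 21631 genes) and promoter sequences came from RefSeq tables of GRCm38.p6. Of table positions within promoter sequences, 98.4% were at a CpG. At the 2649 positions there that are no CpG, 0.537% of calls were methylated. Promoters were matched at 95.2% of measured gene starts, by the listed start nearest to the gene's within 1 kb.

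Classes of gene ends follow the share of counted cells methylated: none (0 cells), few (up to 10%), some (over 10% and under 90%), nearly all (90% or more). Named gene ends are the 12 best covered in nearly all cells (with at least 20 CpG positions) and in no cell, the 12 nearest 50% of cells and the 8 most often mixed within cells (both with 25 or more cells), the 8 with the widest pool range (5 or more cells in every pool), and the highest and lowest member of each list (ties by the most calls), with others needed to account for small counts. Some further members are named for their role in a list and were chosen with values known. Members, lists and rules were chosen with earlier results of these data known. Where 0 of N calls were methylated, the upper limit taken was 3 of N, which is 0.508% for 590 calls and 3.66% for 82. The counting steps were tested on simulated data. Alternatives changed ties, strand merging, windows, cell and CpG minimums, pools and the cell threshold. Python 3.11.15, numpy 2.4.6, scipy 1.17.1 and matplotlib 3.10.9 were used. Transcriptomes of these cells were not analysed here. Some list members are not reported here.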

Additional observations from a re-analysis of the deposited data

Results flagged for a closer look

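In calls outside genes, RRBS510 lay apart from the other pools, with 65.03% against 66.4%, 66.4% and 66.6% in RRBS59, RRBS511 and RRBS512. Chance alone flags about 1 in 20 such groups, and 12 measures were looked at in this way. RRBS510 also holds the cell with the lowest level. Without that cell RRBS510 had 65.3%, still the lowest pool, and its gap to the next pool over the range of the pools went from 0.848 to 0.82, which is just below the critical value.

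Chromosome Y is in the table but enters no result above. It had calls in all 74 cells, 10421 in total, and 71.1% of them were methylated (70.2 to 72.003).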

How the results depend on the processing

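No paired analysis was possible because only the DMSO cells were described and no groups were compared. The single cells cover few CpGs per gene, so counts of gene ends depend on the minimums set. With 1 pool left out in turn, the mean level per cell ran from 33.8% to 34.5%, the level in dense sequence from 7.43% to 7.81%, in poor sequence from 65.8% to 66.2%, at gene ends from 10.3% to 10.7%, inside genes from 50.4% to 51.02%, outside genes from 66.1% to 66.5%, and agreement between cells from 55.4% to 55.9%. Gene ends methylated in nearly all cells then numbered 210 to 261, in some cells 1560 to 1786 and in no cell 6911 to 7111, with fewer gene ends measured. The count in nearly all cells thus fell by more than 1.5 times without RRBS59 (210), RRBS511 (222) or RRBS512 (211).

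CpGs called in at least 5 cells gave 6.44% in dense and 64.2% in poor sequence, 8.59% at gene ends, 45.2% inside and 65.2% outside genes. Dense sequence had 6.28% with a density window of 250 bp and 8.202% with every cytosine on its own. Windows of 500 bp gave 8.52% at gene ends, 41.7% inside and 64.4% outside genes, and windows of 2000 bp gave 13.4%, 57.2% and 66.97%. Gene ends methylated in nearly all cells numbered 600 with 1 CpG per cell, 182 with 5, 99 with at least 20 cells, 739 and 88 with a cell threshold of 20% and 80%, and 214 at gene starts. Those methylated in some cells numbered 3147 with 1 CpG per cell, 1287 with 5, 1091 with at least 20 cells and 1190 with a threshold of 80%. The order of poor above dense sequence, and that of outside above inside above gene ends, held under every setting that gave these levels. Leaving out the cell with the lowest level, an alternative chosen after seeing the data, moved no level by more than the spread over pools and no count by 1.5 times.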
